A study of Homo sapiens with 6 samples.

Results

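The genes described here encode the SR proteins, the heterogeneous nuclear ribonucleoproteins (hnRNPs) and the core proteins of the small nuclear ribonucleoproteins (snRNPs) that recognise and prepare introns for removal. They were chosen by a rule on symbols, with earlier results of these data known. The rule took protein-coding genes named SRSF, SF3A or SF3B plus a number, and those starting with HNRNP or SNRP. It also took U2AF1, U2AF2, ZRSR2, TRA2A, TRA2B, PTBP1 and PTBP3, and left pseudogenes out. This gave 64 genes of 39771 in the table, namely 13 SR genes, 27 hnRNP genes, 12 genes of Sm and snRNP proteins, 9 genes of the SF3 complex and 3 genes of 3′ splice site recognition. A total of 60 reached the expression minimum of 1 TPM, a relative abundance corrected for transcript length, in 2 or more libraries. The other 4 lay at or near 0, with SRSF12 at most at 0.124 TPM, HNRNPA1L3 at 0.2, HNRNPCL1 at 0.0849 and HNRNPCL4 at 0. The symbols SRSF8, HNRNPCL2 and HNRNPCL3 matched no row and were not analysed here.

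The samples were cultures of MOLM-13, a human acute myeloid leukaemia line with the MLL-AF9 translocation, a fusion that drives leukaemic transcription. The shLAMP5 cells carried a lentiviral short hairpin against LAMP5 (4 libraries) and the control cells a non-targeting hairpin (shNT, 2 libraries), all under puromycin selection, and total RNA was sequenced in bulk. All 6 libraries come from this 1 cell line. The labels give neither the hairpin nor the harvest time of each shLAMP5 library, nor whether libraries were separate cultures, so p-values measure a spread that may be technical. LAMP5, a lysosome-associated membrane protein, measured 80.6, 65.6, 68.8 and 86.7 TPM in shLAMP5 1 to 4, against 170 and 282 TPM in shNT 1 and 2. The groups did not overlap, and the log2 fold change was -1.54 (SE 0.25, limma p 0.000275, adjusted p 0.252). Of 14 myeloid markers 13 reached 1 TPM in every library, CD14 being the exception. Their mean level was 5.97, 5.51, 6.51 and 6.18 log2(TPM + 1) in shLAMP5 1 to 4, against 5.67 and 5.73 in shNT 1 and 2, higher in all shLAMP5 libraries except shLAMP5 2, and higher in all 4 after median scaling. The part of this difference in the splicing factor values was not tested. All 8 erythroid and megakaryocytic markers stayed below 1 TPM. In bulk RNA, fewer cells of a type and less RNA per cell cannot be told apart.

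Introns are marked at their 5′ end by the U1 snRNP and at their 3′ end by U2AF, which helps the U2 snRNP with its SF3A and SF3B subunits onto the branch point. Each of the U1, U2, U4 and U5 snRNPs holds a ring of Sm proteins around its RNA. SR proteins bind exonic enhancers and mostly promote inclusion of exons, while hnRNPs coat nascent RNA and often repress it, so that their balance tunes alternative splicing. Many SR and hnRNP genes limit their own messages by splicing in poison exons that lead to decay. In myeloid malignancies SF3B1, SRSF2, U2AF1 and ZRSR2 are recurrently mutated.

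Splicing factor transcripts had lower values in shLAMP5 than in shNT libraries across every role. Fold changes are given as the shLAMP5 mean minus the shNT mean of log2(TPM + 1), and 54 of the 60 tested members came out negative, their median being -0.37. The same held for 50.7% of all 13072 rows tested, whose median was -0.0060. In 35 members every shLAMP5 value was under both shNT values, and in 0 members over both, where over all rows 13.5% lay below and 8.25% above. Members are abundant genes, and among rows with at least 10 TPM in 2 libraries the background was 17.4% below both, and 55.8% negative, against 34 and 53 of 58 members.

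No member passed the test. With limma, 0 members had an adjusted p under 0.05, as did 0% of all rows, the lowest among the members being 0.505. Before adjustment, p was under 0.05 for 11 members with lower values and 0 with higher ones, where over all rows the shares were 5.25% lower and 3.72% higher. That count was smaller without shNT 1 or without shNT 2, and so was the share of lower rows over all rows. Those fits keep 1 control library. The member median was -0.40 without shNT 1 and -0.31 without shNT 2, beside -0.040 and 0.0060 over all rows. The mean over shLAMP5 libraries was between 60% and 80% of the shNT mean in 33 members and at least 80% in 27, from 63.4% for SF3B3 to 116% for SNRPN. Together the 64 genes held 1.40%, 1.01%, 1.05% and 1.34% of all TPM in shLAMP5 1 to 4, against 1.50% and 1.58% in shNT 1 and 2.

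**Figure D1:**
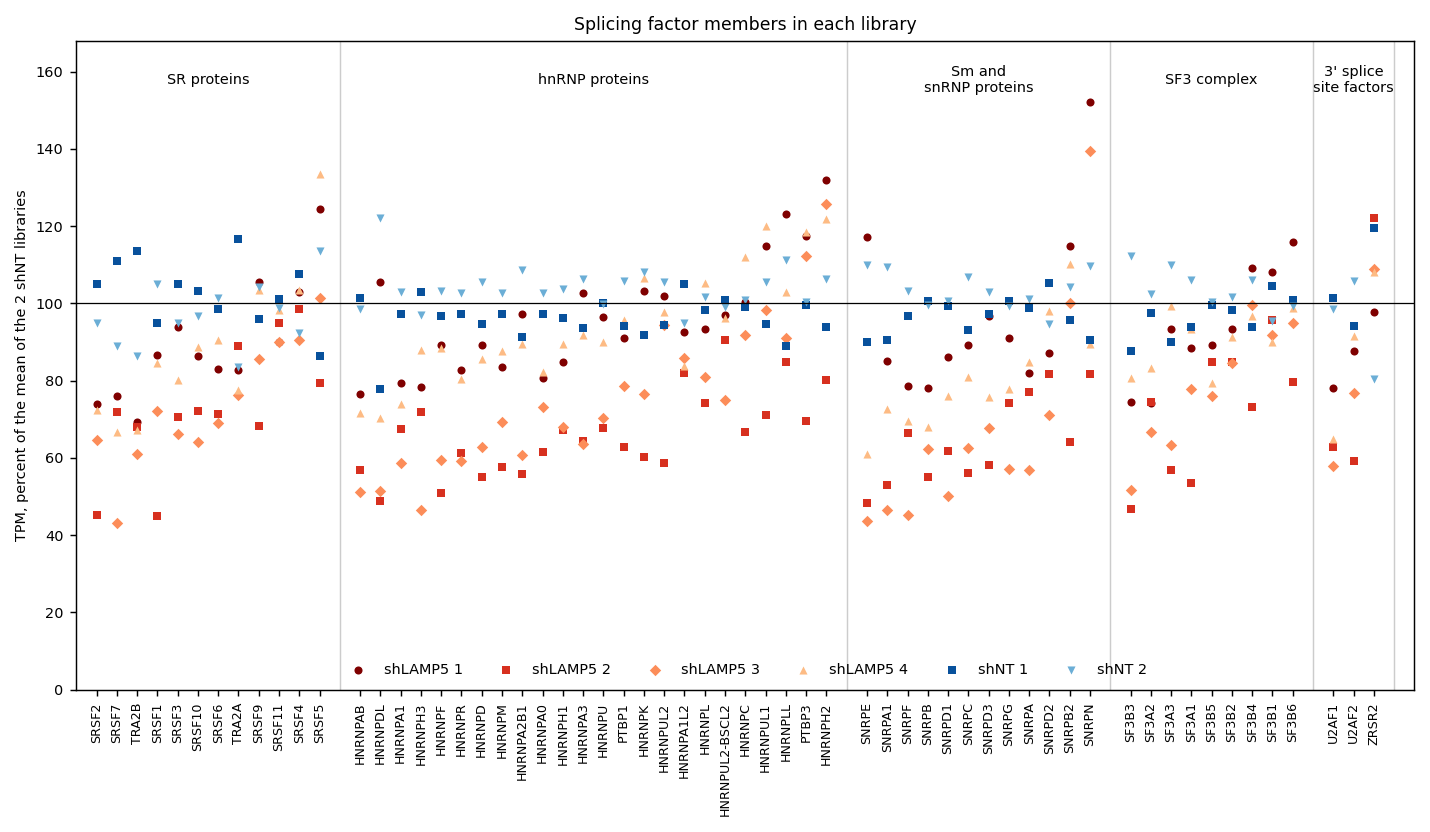
Each point is 1 library's TPM for 1 tested member as a percent of the mean of the 2 shNT libraries, with members on the horizontal axis ordered by log2 fold change within each role. Most shLAMP5 points lie below 100%, with shLAMP5 2 and shLAMP5 3 at the bottom for 33 and 25 of 60 members.

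The shLAMP5 libraries were not alike. Relative to the shNT mean, the median member stood at 0.905 in shLAMP5 1, 0.676 in shLAMP5 2, 0.699 in shLAMP5 3 and 0.890 in shLAMP5 4. Library shLAMP5 2 was low for genes at large, its median over all rows being 0.836 where the other shLAMP5 libraries lay between 1.02 and 1.03. In that library 1 row with no annotation (ENSG00000226958) held 7.26% of all TPM, against 1.72% to 2.41% in the other 5, and mitochondrially encoded genes 14.1%, against 8.75% to 10.9%. The part of these rows in the low member values of shLAMP5 2 was not tested. Values are therefore given also after median scaling, in which each library is divided by its median ratio to the geometric mean of all libraries. After it the members averaged 6.82, 6.70, 6.48 and 6.76 log2(TPM + 1) in shLAMP5 1 to 4, all below the 6.98 of both shNT libraries. Then 52 members had a negative log2 fold change and 31 lay below both shNT libraries, beside 47.1% and 13.7% of all rows, and 0 lay above both, beside 12% of all rows. Scaling raised shLAMP5 2, which stood at 6.45 before it, so that shLAMP5 3 became the lowest library. Without shLAMP5 2, unscaled, 49 members were negative, beside 45% of all rows. In that fit 36 members lay below both shNT libraries, beside 17.1% of all rows, and 2 (PTBP3 and HNRNPH2) above both, beside 22.5% of all rows.

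**Figure D2:**
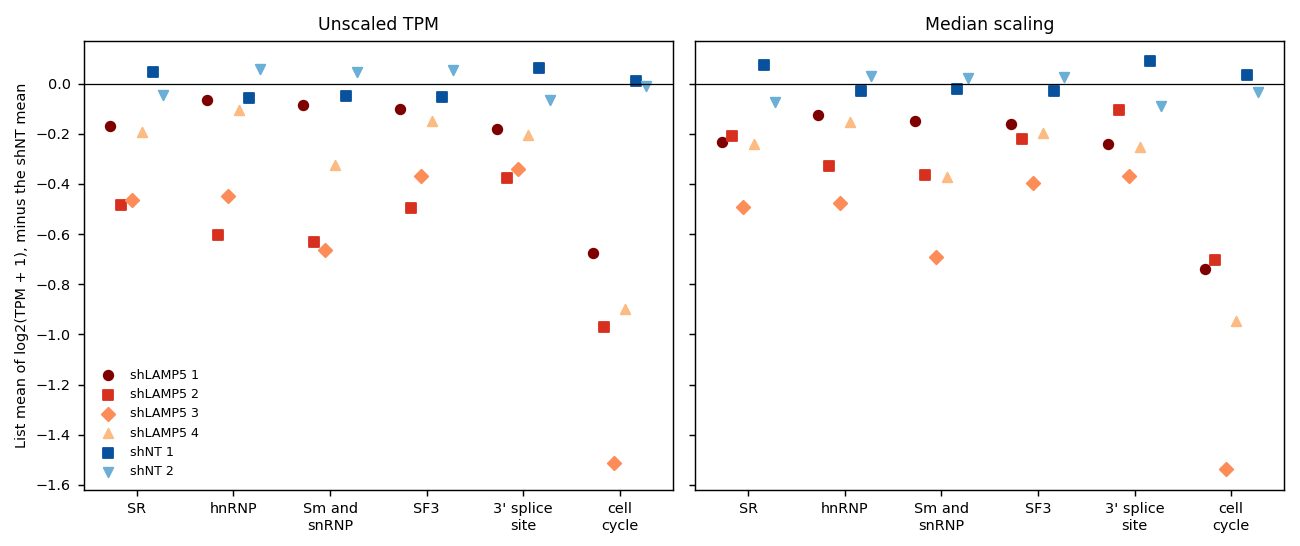
The vertical axis gives each role's mean of log2(TPM + 1) in a library minus the mean of the shNT libraries, for unscaled TPM (left) and after median scaling (right), with the cell cycle list beside the roles. All 4 shLAMP5 libraries lie below both shNT libraries in every role and in the cell cycle list, and shLAMP5 3 is lowest in every role after scaling.

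Among SR proteins, 11 of 12 tested genes were negative, the median being -0.36, and for 8 of them no shLAMP5 library reached either shNT library. Over all rows 50.7% were negative and 13.5% lay below both shNT libraries. SRSF2, an enhancer-binding SR protein that stays in the nucleus, measured 140, 85.8, 122 and 137 TPM in shLAMP5 1 to 4, against 199 and 180 TPM in shNT 1 and 2. The groups did not overlap, and the log2 fold change was -0.66 (SE 0.24, limma p 0.024, adjusted p 0.524). TRA2B, a splicing activator with RS domains at both ends, was even among the shLAMP5 libraries at 180, 176, 158 and 174 TPM, against 295 and 224 TPM in shNT. Its log2 fold change was -0.58 (SE 0.19, limma p 0.0145, adjusted p 0.505), and -0.38 without shNT 1. The gap between the shNT libraries was wider than the range of all 4 shLAMP5 libraries.

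SRSF7, which shuttles between nucleus and cytoplasm and serves mRNA export, measured 207, 196, 118 and 182 TPM in shLAMP5 and 303 and 242 TPM in shNT, with shLAMP5 3 lowest and no overlap. Its log2 fold change was -0.66 (SE 0.26, limma adjusted p 0.538), and -0.42 with the replicate number as a block. The founding member SRSF1 was at 72.1% of its shNT mean, SRSF3 at 77.7%, SRSF6 at 78.5% and SRSF10 at 77.8%, each without overlap of the groups. SRSF4 and SRSF11 stayed near their shNT means, at 98.9% and 93.3%. SRSF11 still lay below both shNT libraries, by a narrow margin (120.8 TPM in shLAMP5 4 against 121.6 in shNT 2). That separation was lost after median scaling. SRSF5 was the 1 SR gene with a positive value: it measured 363, 232, 296 and 390 TPM in shLAMP5 and 252 and 331 TPM in shNT. Its groups overlapped, and its log2 fold change of 0.12 (95% interval -0.46 to 0.70) turned to -0.077 without shNT 1.

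The hnRNP genes are the most abundant group, and 21 of 24 tested were negative, at a median of -0.33. Of them 12 lay below both shNT libraries, where the shares over all rows were 50.7% negative and 13.5% below both. HNRNPA1, which binds splicing silencers and had the highest level of all members, measured 1426, 1214, 1057 and 1330 TPM in shLAMP5 1 to 4, against 1747 and 1849 TPM in shNT 1 and 2. All 4 values lay below both shNT values. HNRNPA1 averaged 1257 ± 159 TPM in shLAMP5 (SD, n = 4) against 1798 ± 72.0 TPM in shNT (SD, n = 2), a log2 fold change of -0.52 (SE 0.17, limma p 0.0149, adjusted p 0.505). The pseudogene HNRNPA1P10, a near copy of it, had 24.2 to 34.0 TPM in shLAMP5 and 37.1 and 43.4 TPM in shNT, and reads may be split between the copies. All 180 pseudogene rows of the families together held at most 77.0 TPM in any library.

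HNRNPAB, an A/B-type hnRNP, measured 179, 133, 120 and 167 TPM in shLAMP5, against 237 and 231 TPM in shNT. With 64.1% of the shNT mean it had the lowest ratio of the tested hnRNP genes, with a log2 fold change of -0.66 (SE 0.22, limma p 0.016, adjusted p 0.505). HNRNPR measured 123, 91.1, 88.0 and 119 TPM in shLAMP5 and 145 and 152 TPM in shNT, a log2 fold change of -0.51 (SE 0.21, limma p 0.0433, adjusted p 0.541). In both genes every shLAMP5 library lay below the shNT values, with shLAMP5 3 lowest.

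HNRNPA2B1, a partner of HNRNPA1 that also sorts RNA in the cytoplasm, did not separate the groups: it had 1034, 593, 647 and 950 TPM in shLAMP5 and 971 and 1154 TPM in shNT. Only shLAMP5 2 and shLAMP5 3 lay well under the shNT values, and the log2 fold change was -0.43 (SE 0.26, limma adjusted p 0.653). PTBP1, a repressor that binds pyrimidine-rich tracts, measured 152, 105, 131 and 160 TPM in shLAMP5 and 157.2 and 177 TPM in shNT, a log2 fold change of -0.30 (SE 0.22, limma adjusted p 0.706), or -0.18 without shLAMP5 2. Its paralog PTBP3 had 30.4, 18.0, 29.02 and 30.6 TPM in shLAMP5 and 25.7 and 25.9 TPM in shNT. Here 3 shLAMP5 libraries lay above both shNT libraries and shLAMP5 2 below them.

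HNRNPH2 had the highest log2 fold change of all members, 0.17 (95% interval -0.39 to 0.74), with 36.6, 22.2, 34.9 and 33.8 TPM in shLAMP5 and 26.0 and 29.5 TPM in shNT. It was 0.33 without shLAMP5 2 and 0.086 without shNT 1. Its paralogs HNRNPH1 and HNRNPH3 were at 77.4% and 71.2% of their shNT means, below both shNT libraries in all shLAMP5 libraries. HNRNPLL, which controls CD45 splicing in lymphocytes, was near even, with 47.5, 32.7, 35.2 and 39.8 TPM in shLAMP5 and 34.3 and 42.9 TPM in shNT. HNRNPUL2-BSCL2 is a readthrough transcript of neighbouring genes, which shares sequence with HNRNPUL2, and its level is therefore uncertain.

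The promoters of 4 hnRNP genes are shown because hnRNP promoters held both motifs searched more often, by count, than the other roles: HNRNPAB, HNRNPD and HNRNPH3, each lower in all shLAMP5 libraries than in either shNT library, and HNRNPH2, which had the highest log2 fold change. RefSeq promoters (build GRCh38.p14, 250 bases before to 50 after the gene start) were found for 58 of 64 members. Capitals mark CACGTG, the E-box that MYC and MAX can bind (a palindrome, so the same on both strands), and CCAAT or its reverse complement ATTGG, the box bound by NF-Y. The motifs do not overlap in these windows.
HNRNPAB, chr5:178204283-178204582, plus strand: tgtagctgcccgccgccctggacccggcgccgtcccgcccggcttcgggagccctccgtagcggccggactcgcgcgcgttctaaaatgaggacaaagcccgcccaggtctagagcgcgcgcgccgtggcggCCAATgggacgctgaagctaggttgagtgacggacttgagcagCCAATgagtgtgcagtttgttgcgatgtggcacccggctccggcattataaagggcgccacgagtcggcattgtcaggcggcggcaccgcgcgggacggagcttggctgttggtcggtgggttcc
HNRNPD, chr4:82373942-82374241, minus strand: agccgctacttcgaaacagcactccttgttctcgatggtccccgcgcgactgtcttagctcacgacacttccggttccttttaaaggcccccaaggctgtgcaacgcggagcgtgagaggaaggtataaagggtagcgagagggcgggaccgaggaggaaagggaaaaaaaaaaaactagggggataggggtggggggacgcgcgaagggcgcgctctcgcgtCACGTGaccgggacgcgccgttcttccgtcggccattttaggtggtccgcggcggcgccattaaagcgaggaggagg
HNRNPH3, chr10:68331443-68331742, plus strand: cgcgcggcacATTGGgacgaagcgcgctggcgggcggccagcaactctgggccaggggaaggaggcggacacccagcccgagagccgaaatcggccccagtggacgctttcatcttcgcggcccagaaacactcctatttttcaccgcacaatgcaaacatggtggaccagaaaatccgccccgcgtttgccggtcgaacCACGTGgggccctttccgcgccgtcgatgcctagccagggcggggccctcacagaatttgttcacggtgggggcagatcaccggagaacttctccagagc
HNRNPH2, chrX:101407972-101408271, plus strand: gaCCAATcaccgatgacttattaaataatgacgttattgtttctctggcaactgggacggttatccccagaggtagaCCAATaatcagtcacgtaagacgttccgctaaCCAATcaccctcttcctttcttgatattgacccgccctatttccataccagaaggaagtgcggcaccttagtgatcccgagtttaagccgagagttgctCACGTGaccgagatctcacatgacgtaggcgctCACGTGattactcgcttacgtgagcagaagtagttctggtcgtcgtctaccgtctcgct

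CACGTG occurred in 7 of 25 hnRNP promoters and in 8 of all 58 member promoters (13.8%), beside 10.6% of 8947 promoters of tested protein-coding genes and 7.43% of all 27305 in the table. The other promoter with it was that of SF3B1, and 0 of 11 SR, 0 of 11 snRNP and 0 of 3 splice site promoters held it. CCAAT on either strand occurred in 16 of 25 hnRNP promoters and 22 of 58 member promoters (37.9%), beside 37.0% and 35.7% of those 2 backgrounds. The windows of HNRNPUL2 and HNRNPUL2-BSCL2 overlap and hold the same ATTGG, so that site is counted for both. The median log2 fold change was -0.39 over the 8 tested members with CACGTG and -0.36 over the 47 without it. HNRNPH2, with 2 copies of CACGTG, and HNRNPAB, with none, stood at opposite ends of the hnRNP changes. A match says only that these letters are present in the window.

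The Sm and snRNP group had the lowest median, -0.47, with 11 of 12 genes negative and 8 below both shNT libraries. For all rows these shares were 50.7% and 13.5%. SNRPB, which encodes the ring proteins SmB and SmB′, measured 400, 283, 320 and 349 TPM in shLAMP5 1 to 4, against 516 and 510 TPM in shNT 1 and 2. The shNT libraries agree closely and all shLAMP5 libraries lie well under them, at 65.9% of the shNT mean, with a log2 fold change of -0.61 (SE 0.19, limma p 0.0119, adjusted p 0.505). SNRPF, the ring protein SmF, measured 74.3, 62.8, 42.8 and 65.7 TPM in shLAMP5 and 91.5 and 97.6 TPM in shNT, a log2 fold change of -0.64 (SE 0.25, limma p 0.031, adjusted p 0.528). SNRPA1, a U2 protein outside the ring that pairs with SNRPB2, measured 73.4, 45.6, 40.0 and 62.7 TPM in shLAMP5 and 78.0 and 94.4 TPM in shNT, a log2 fold change of -0.66 (SE 0.28, limma p 0.0433, adjusted p 0.541). Neither gene's groups overlapped, and shLAMP5 3 was lowest in both.

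Of the other ring genes, SNRPD1 was at 68.5%, SNRPD3 at 74.7% and SNRPG at 75.1% of the shNT mean, below both shNT libraries throughout. SNRPD2 was at 84.5% with overlap. SNRPE had the lowest log2 fold change of all members, -0.67 (SE 0.38), yet its groups overlapped, at 380, 156, 142 and 198 TPM in shLAMP5 and 292 and 357 TPM in shNT. Library shLAMP5 1 was the highest of all 6 for this gene. Its pseudogene SNRPEP4 measured 10.5, 22.4, 20.1 and 15.8 TPM in shLAMP5 and 16.2 and 17.6 TPM in shNT. The U1 proteins SNRPA and SNRPC were at 75.2% and 72.2% of the shNT mean, below both shNT libraries, while the U2 protein SNRPB2 was at 97.3%. SNRPN, the imprinted paralog of SNRPB, had 4.13, 2.22, 3.79 and 2.43 TPM in shLAMP5 and 2.45 and 2.97 TPM in shNT. Its log2 fold change of 0.13 was 0.019 without shLAMP5 1 and 0.24 without shLAMP5 2. It was the lowest of the tested members in level, its groups overlapped, and its reads could be shared with SNRPB.

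All 9 SF3 genes were negative (median -0.28), and 5 lay below both shNT libraries, beside 50.7% and 13.5% of all rows. SF3B3, a large scaffold subunit of SF3B, measured 39.7, 24.96, 27.6 and 43.1 TPM in shLAMP5 1 to 4, against 46.8 and 60.02 TPM in shNT 1 and 2, a log2 fold change of -0.67 (SE 0.27, limma p 0.04, adjusted p 0.541). The groups were separate, though shLAMP5 4 came near shNT 1. SF3A2 had 41.3, 41.5, 37.1 and 46.3 TPM in shLAMP5 and 54.3 and 57.0 TPM in shNT, a log2 fold change of -0.42 (SE 0.18, limma p 0.0519, adjusted p 0.554). SF3B5, a small SF3B subunit, had 249, 236, 212 and 221 TPM in shLAMP5 and 277 and 280 TPM in shNT, a log2 fold change of -0.28 (SE 0.17, limma adjusted p 0.644). In SF3B5 the separation was lost after median scaling, where shLAMP5 2 stood at 282 scaled TPM, against 278 and 270 in shNT.

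SF3B1, the branch point subunit that is the most often mutated splicing gene in myelodysplasia, was near its shNT level. It measured 147, 130, 125 and 123 TPM in shLAMP5 and 142 and 130 TPM in shNT, with a log2 fold change of -0.055 (95% interval -0.46 to 0.35). The groups overlapped, and the sign turned under quantile normalization (0.029) and without shNT 1 (0.0089). SF3B6 and SF3B4 were likewise at 97.3% and 94.6% of the shNT mean, so that subunits of the same complex ranged from 63.4% to 97.3%.

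Of the 3′ splice site factors, U2AF1, which reads the AG at the intron end, measured 155, 125, 115 and 129 TPM in shLAMP5 1 to 4, against 201 and 196 TPM in shNT 1 and 2. U2AF1 averaged 131 ± 17.1 TPM in shLAMP5 (SD, n = 4) against 198 ± 3.94 TPM in shNT (SD, n = 2), a log2 fold change of -0.61 (SE 0.19, limma p 0.0122, adjusted p 0.505). Its partner U2AF2, which binds the pyrimidine tract, had 125, 84.7, 110 and 131 TPM in shLAMP5 and 134 and 151 TPM in shNT, a log2 fold change of -0.36 (SE 0.22, limma adjusted p 0.664), or -0.23 without shLAMP5 2. Both were below the shNT libraries throughout, U2AF1 by the wider margin. ZRSR2, which acts at the 3′ splice sites of minor introns, had 9.01, 11.3, 10.1 and 9.97 TPM in shLAMP5 and 11.02 and 7.42 TPM in shNT. Of the shLAMP5 values 3 lay between the shNT values and that of shLAMP5 2 just above them, and the log2 fold change of 0.13 became -0.12 without shNT 2.

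**Figure D3:**
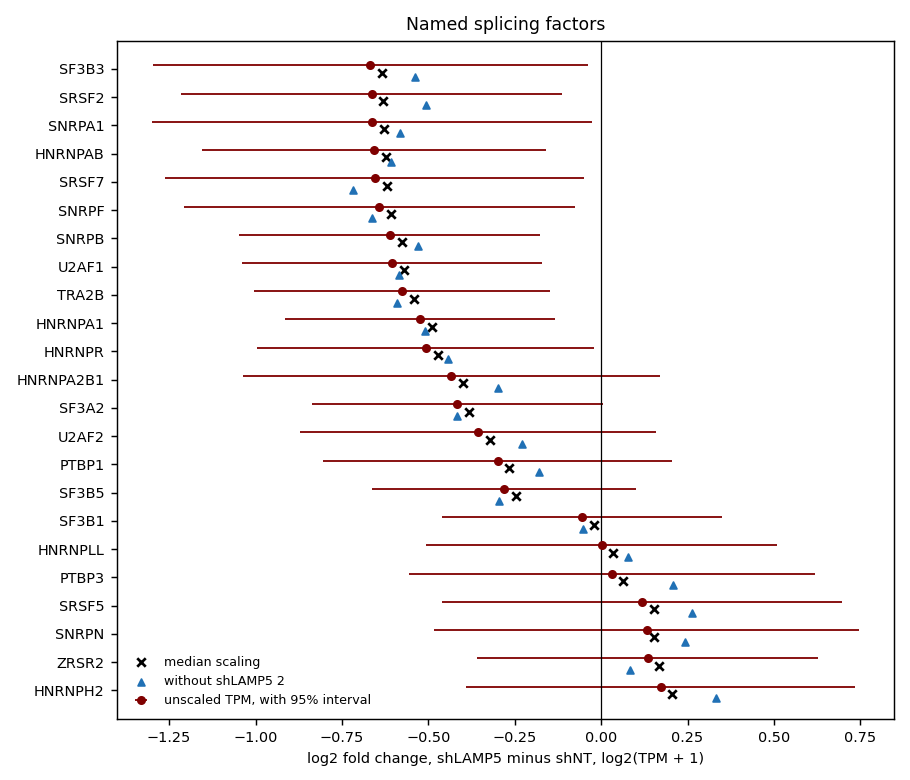
The horizontal axis gives log2 fold changes (shLAMP5 minus shNT) of 23 named members, with circles and 95% intervals for unscaled TPM, crosses for median scaling and triangles without shLAMP5 2. The intervals of 11 members lie wholly below 0 before adjustment, where 5.25% of all rows were lower at an unadjusted limma p under 0.05. They are all those found among the 60 tested members, since some members were named for a small p in the same fit. The 6 members with positive values are at the bottom.

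For single genes an exact two-sided permutation test over the 15 splits of 6 libraries can give no p below 0.0667. This value was reached by SRSF2, TRA2B, HNRNPA1, SNRPB, SNRPF, SF3A2, SF3B5 and U2AF1. Of these SNRPF, SF3A2 and SF3B5 were named for a small limma p in the same libraries. The others were named with earlier results of these data known, so the test is no separate support for any of these genes. It was run on named genes only, so no share over all rows can be set beside it. HNRNPAB, HNRNPR, SNRPA1, SF3B3, SRSF7 and U2AF2 gave 0.133, HNRNPA2B1 and PTBP1 0.2, SF3B1 0.667, and the 6 members with positive values gave 0.533 or more.

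Other genes of the splicing pathway were read from the same fit, and 0 of them passed an adjusted p of 0.05 with limma. Over all rows 50.7% were negative, 13.5% lay below both shNT libraries and 8.25% above. An unadjusted limma p under 0.05 was found for 5.25% of all rows with lower values and 3.72% with higher ones. Of 27 further snRNP-specific proteins, 25 were negative (median -0.27), and 12 lay below both shNT libraries, with 3 lower and 0 higher at an unadjusted p under 0.05. RBM17, a U2-associated factor, had 83.8, 93.0, 81.2 and 85.9 TPM in shLAMP5 and 123 and 114 TPM in shNT, a separation lost after median scaling. PPIH, a cyclophilin of the U4/U6 snRNP, stood at -0.68 on the log2 scale, while SART1 and PRPF6 of the tri-snRNP stood at 0.050 and 0.052. All 7 LSm genes of the U6 ring were negative, with a median of -0.40, 4 below both shNT libraries and 1 lower at an unadjusted p under 0.05. Among them LSM4 had -0.67 and LSM7 -0.40.

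The list for Sm ring assembly also held genes that act outside that step. Of its genes, 17 of 17 were negative (16 after median scaling), with a median of -0.36. Of them 7 lay below both shNT libraries and 3 were lower at an unadjusted limma p under 0.05. Those counts stand beside 50.7% of all rows negative (47.1% after scaling), 13.5% below both and 5.25% lower at that p. GEMIN5, which recognises the snRNA for the SMN complex, had 10.5, 8.27, 7.26 and 11.5 TPM in shLAMP5 and 16.7 and 15.6 TPM in shNT, a log2 fold change of -0.74. COPRS, a cofactor of the arginine methyltransferase PRMT5, had -0.61. SMN1 and SMN2 are near-identical copies whose separate values are uncertain. Factors of the catalytic steps were closer to the background, with 17 of 26 negative and a median of -0.062. Of them 3 lay below and 2 above both shNT libraries (5 above after median scaling). At an unadjusted limma p under 0.05, 1 was higher. Over all rows 8.25% lay above both (12% after scaling), and 3.72% were higher at that p. CWC15 and SLU7 had log2 fold changes of 0.62 and 0.41, with all shLAMP5 libraries above both shNT libraries, and DHX35 and PRPF38B had -0.44 and -0.31. CWC15 was low, at 1.88 to 3.48 TPM in shLAMP5 and 1.56 and 1.19 TPM in shNT.

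Among kinases, a phosphatase and importins, not all specific to SR proteins, 7 of 11 were negative, with a median of -0.067. The 1 below and 1 above both shNT libraries were near the shares over all rows, 13.5% and 8.25%, where 50.7% were negative. SRPK1, the main cytoplasmic SR kinase, spread widely, at 85.6, 27.6, 36.8 and 97.3 TPM in shLAMP5 and 59.9 and 89.8 TPM in shNT, whereas SRPK2 was higher in every shLAMP5 library (13.8, 15.5, 17.7 and 16.5 TPM, against 13.1 and 11.3 TPM in shNT). The importin TNPO1, the 1 gene of this list below both shNT libraries, stood at -0.41 and the kinase DYRK1A at 0.053. After median scaling SRPK2 no longer separated the groups, at 0.38. Of 41 tested SR-related and other regulators, 36 were negative with a median of -0.28, 17 below and 1 above both shNT libraries. Both this list and the next stand beside the same shares over all rows, 50.7% negative, 13.5% below and 8.25% above. There FUBP1 had -0.56, RBFOX2 -0.54, RBM5 0.29 and MBNL2 0.44. MBNL2 was low and its groups overlapped, at 0.733 to 3.67 TPM in shLAMP5 and 1.97 and 0.855 TPM in shNT. RBFOX2 was low too, at 1.37 to 3.16 TPM over all libraries. Of 14 tested genes of the exon junction complex and nonsense-mediated decay, 11 were negative with a median of -0.25 and 5 below both. MAGOHB had -0.66, the helicase UPF1 -0.40, SMG6 0.095 and SMG1 0.014.

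**Figure D4:**
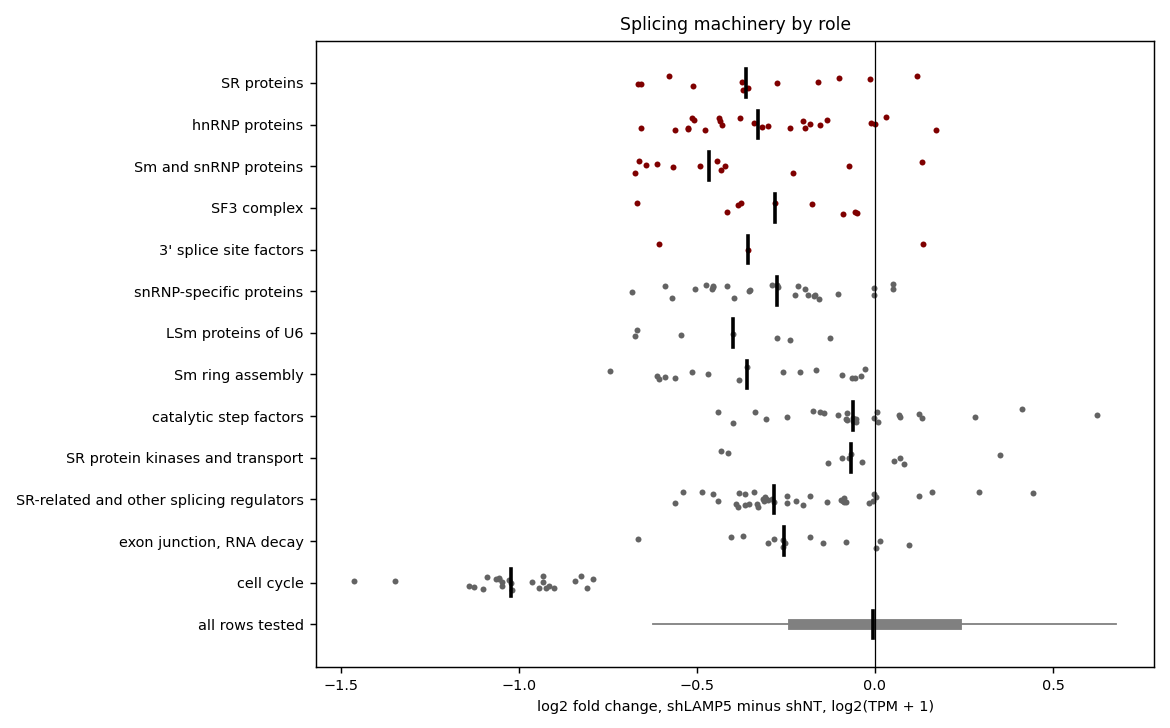
Points are log2 fold changes (shLAMP5 minus shNT) of tested genes by list, black bars are list medians, and the grey bar and line span the middle 50% and 90% of all 13072 rows. Medians run from -0.47 for Sm and snRNP genes to -0.062 for catalytic step factors, with cell cycle genes at -1.02 and all rows at -0.0060.

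Cell cycle genes also had lower values in shLAMP5. All 25 listed were negative, their median being -1.02, and 25 lay below both shNT libraries, beside 50.7% and 13.5% of all rows. After median scaling 24 lay below both, beside 13.7% of all rows. They averaged 5.67, 5.38, 4.84 and 5.45 log2(TPM + 1) in shLAMP5 1 to 4, against 6.36 and 6.34 in shNT 1 and 2. Library shLAMP5 3 was lowest for this list both unscaled and after median scaling (4.79). For the splicing factors shLAMP5 2 was lowest unscaled (6.45) and shLAMP5 3 after scaling (6.48). TOP2A, a topoisomerase of dividing cells, had -1.35 and AURKA, a mitotic kinase, -1.05. The part of proliferation in the splicing factor values was not tested. In this list too, 0 genes passed an adjusted p of 0.05 with limma, and 25 had an unadjusted p under 0.05. After median scaling 24 did. The share of all rows that were lower at that p was 5.25%, and 6.31% after scaling.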

How the data were processed

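Bulk RNA of 6 MOLM-13 libraries was measured by RNA sequencing. The authors deposited 1 table of TPM per Ensembl gene, its unit read from the values, which sum to between 897026 and 912565 per library. Per the submitters' processing notes, kallisto and hg19 were used; neither its version nor the transcript set is known from them. TPM holds no read depth, so no counting interval is given, and it is relative within a library. Symbols came from a name table (35558 rows matched) and gene types from GENCODE release 29.

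Groups follow the titles. Rows reaching 1 TPM in 2 or more libraries were fitted with limma 3.58.1 (R 4.3.3, mean-variance trend) on log2(TPM + 1), group as the only factor, with Benjamini-Hochberg adjustment over all 13072 rows and a threshold of 0.05. The fold changes understate those of low genes. The fit was tested on simulated data. Tables were made in pandas 2.3.3 and plots in matplotlib 3.10.9 (Python 3.11.15).

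Members, lists and named genes were chosen with earlier results of these data known. Named were 4 mutated genes, 6 further members, and per role the 3 smallest p in each direction; per other list, 2 in each direction. Members given by a percent of shNT, and SNRPE, were picked with their values in view. The protein features planned were not computed, and the nuclear-retained RNA list (2 genes) matched no row. T and B cell markers were below 1 TPM for 5 of 6 genes each, and packaging cell and fibroblast markers for 5 of 9. Mitochondrially encoded genes had 13 of 13 positive values (median 0.14). Alternatives were other pseudocounts (0.1 and 5), filters, scalings, coding rows, no trend, weights, each library left out, and the replicate block.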

Additional observations from a re-analysis of the deposited data

Results flagged for a closer look

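PTBP3 in shLAMP5 2 lay far from the other shLAMP5 libraries, at 18.0 TPM, where the other 3 had 29.02 to 30.6 TPM and the shNT libraries 25.7 and 25.9 TPM. The gap was 0.874 of the group's range, above Dixon's critical value. It was the 1 flagged of 30 values tested in this way, and chance flags about 1 in 20.

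A row outside the members but within the fit over all rows, ENSG00000226958, has no symbol in the tables used. It held 65099 TPM in shLAMP5 2, above the 20888 and 15877 TPM of shNT 1 and 2. The other shLAMP5 libraries had 15576 to 21957 TPM.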

How the results depend on the processing

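Under all 18 alternatives 0 splicing factor members were called at an adjusted p of 0.05, and the member median stayed negative, between -0.23 with library weights and -0.38 at a minimum of 10 TPM, and between -0.44 and -0.30 with a library left out. Members below both shNT libraries numbered 27 under quantile normalization (14.7% of all rows) to 43 without shNT 1 and shLAMP5 2 together (29.9% of all rows), where 3 members and 33.6% of all rows lay above. Over all rows, 210 were called with library weights, 14 with no filter and 16 with the replicate block, against 0; 0 in every fit without 1 library. LAMP5 passed with library weights (log2 fold change -1.40, adjusted p 0.0302) and in 0 of the other fits, ranging from -1.90 to -1.17 with a library left out. The median of the 3′ splice site factors was -0.36, but -0.18 with library weights, -0.46 with the replicate block, and -0.44 to -0.23 with a library left out. Library weights also gave -0.14 for SF3 and -0.18 for hnRNP genes. Members with an unadjusted p under 0.05 numbered 11, but 17 under median scaling, 0 with the replicate block, 2 without shNT 1 and shLAMP5 2, and 0 to 18 with a library left out; over all rows 686 lower and 486 higher became 825 and 730 under median scaling, 127 and 155 with the block, 1166 and 1691 with library weights, 357 and 655 without shNT 1 and shLAMP5 2, and 210 to 897 and 198 to 1351 with a library left out, the highest both without shLAMP5 2. The causes were not tested.

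Signs turned in 13 of the 60 members under at least 1 alternative, 5 of them without shLAMP5 2 (SF3B6, SF3B4, HNRNPUL1, HNRNPC and SNRPB2, the last at 0.11). HNRNPK and SRSF9, at -0.24 and -0.16, turned with library weights alone (0.013 each), and SRSF4 under 9 alternatives. SF3B1 was 0.029 under quantile normalization, 0.025 with the replicate block and 0.011 without shNT 1 and shLAMP5 2, and ran from -0.12 to 0.0089 with a library left out. ZRSR2 ran from -0.12 to 0.39 and SRSF5 from -0.077 to 0.31 with a library left out. PTBP3 was -0.14 with the replicate block and -0.037 to 0.21 with a library left out. HNRNPLL was -0.080 without shNT 1 and shLAMP5 2, and -0.16 to 0.16 with a library left out.

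The replicate numbers are shared by 2 pairs only and the labels do not say what they mark. Deviations from the group means correlated at -0.52 for number 1 and -0.47 for number 2. With 2 shNT libraries the crossed pairs must have the opposite sign. They were 0.52 for shLAMP5 1 with shNT 2 and 0.47 for shLAMP5 2 with shNT 1. Nuclear protein-coding rows alone, an alternative added after the data were seen, gave a member median of -0.32 beside 0.031 for all rows, and 30 members below both shNT libraries and 0 above, beside 12.9% and 12.5% of all rows.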
